A study of Mus musculus with 4 samples.

Results

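Cells that divide first copy their DNA and then part the copies in mitosis, and each step has its own set of transcripts. The 40 cell division genes described here were picked by name for those roles, 13 for DNA replication and 27 for mitosis, out of 32285 genes counted in each section. All 40 were found by symbol in the gene table and all 40 had enough counts to be compared in each of 4 comparisons. They were followed in 4 tissue sections from wildtype mice, flash-frozen and profiled with 10x Visium. That assay captures RNA on a grid of barcoded spots under the tissue, and a unique molecular identifier (UMI) lets every captured molecule count once. The groups were facial skin and oral mucosa, each without a wound or at postoperative day 4, and each group was 1 section. No strain, age, wound size or number of animals stands in the labels, and no value below has a replicate or a test behind it. Values are CPM, the UMI counts of a gene or list scaled to 1000000 UMIs of the section, region or spots in question, with exact 95% intervals that hold counting error only.

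At the end of the first gap phase cyclin E and the E2F factors switch on the genes that license and fire replication origins. The MCM2 to MCM7 ring is the helicase that opens DNA, PCNA is the clamp that holds the polymerase, and ribonucleotide reductase and thymidylate synthase make the nucleotides. Later, CDK1 with cyclins A and B drives entry into mitosis, kinetochore and spindle proteins move the chromosomes, and the anaphase-promoting complex ends it. In stratified epithelia division is known to sit in the basal layer, and in hair follicles in the matrix at the bulb, while mature muscle fibres do not divide. A spot covers several cells, so more dividing cells and more of these transcripts per cell cannot be told apart in any value here.

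Some properties of the sections stand beside every comparison. Total UMIs ranged from 3004174 in the day 4 oral section to 11939479 in the facial section labelled unwounded, over 430 to 1288 spots, and 652 of the 1288 spots of the unwounded oral section held under 100 UMIs. Both unwounded sections carried Y-linked transcripts with at most 1 Xist UMI, and both day 4 sections carried Xist (909 and 84 UMIs) with no Ddx3y, so wounding and these sex-linked genes cannot be told apart. Neutrophil markers (11 of 11 with a UMI) made up 0.611% of UMIs in the facial section labelled unwounded and 0.0287% at day 4 (11 of 11), the opposite of the wound labels, against 0.00424% (10 of 11) and 0.383% (10 of 11) in oral mucosa. Wound keratinocyte markers also ran against the labels in facial skin. By the rule given below, 10 of 12 were called lower and 0 higher at day 4, against 8.59% and 6.09% of all genes. Macrophage markers had 7 of 14 lower and 0 higher. Dendritic and Langerhans cell markers had 4 of 9 lower and 0 higher, and T, NK and B cell markers 4 of 8 lower and 1 higher. Some other lists did not run against the labels: regenerating muscle markers had 6 of 7 higher and 0 lower, and fibroblast markers 3 of 12 higher and 0 lower. Wound matrix markers were mixed, with 3 of 12 higher and 4 lower. Each facial difference is therefore between the sections as labelled. Skeletal muscle markers (12 of 12 with a UMI in every section) took 5.42% and 4.64% of the UMIs of the unwounded and day 4 oral sections, against 0.124% and 0.0984% in facial skin. Basal keratinocyte markers (10 of 10 in every section) took 1.499% and 1.35% in facial skin (labelled unwounded, then day 4) and 0.288% and 0.480% in oral mucosa. The sections shared between 46 and 347 spot barcodes per pair, as arrays of one design do.

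The promoters of both groups of genes differ in short motifs, which are given here as a description. Whether they bear on the counts below was not tested. RefSeq promoter windows (GRCm38.p6, 250 bases before to 50 after the start) were found for 33 of the 40 genes, 11 replication and 22 mitosis. Motifs of 3 kinds were searched on both strands: the CCAAT box (CCAAT), bound by NF-Y; the CHR, a cell cycle element (TTTGAA or TTCGAA); and an E2F site (TTTGGCGC, TTTCGCGC, TTTCCCGC or TTTGCCGC). A CHR was in 18 of the 22 mitosis windows and 2 of the 11 replication windows, and in 21.7% of the windows of all 27025 genes in the table. An E2F site was in 4 of the 11 replication windows (Mcm3, Mcm5, Mcm6 and Mcm7) and in 1 of the 22 mitosis windows (Cdk1), against 2.60% of all genes. The CCAAT box was in 8 of 11 and 19 of 22, against 41.1% of all genes. The other replication and mitosis genes that were listed gave shares of the same order, with an E2F site in 14 of 30 and 4 of 40 and a CHR in 6 of 30 and 30 of 40. A match is a string of letters in a window and not a bound site. The 150 bases before the start of 7 members follow, read 5′ to 3′ along the strand of the gene, with these motifs on either strand in capitals.
Mcm3 (chr1:20820313-20820462, minus strand): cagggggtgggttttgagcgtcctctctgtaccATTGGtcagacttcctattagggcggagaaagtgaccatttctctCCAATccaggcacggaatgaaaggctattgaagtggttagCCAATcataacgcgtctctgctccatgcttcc
Mcm5 (chr8:75109359-75109508, plus strand): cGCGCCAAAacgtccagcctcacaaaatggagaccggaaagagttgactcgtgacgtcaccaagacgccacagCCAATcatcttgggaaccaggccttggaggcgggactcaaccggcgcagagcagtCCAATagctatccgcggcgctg
Mcm6 (chr1:128359706-128359855, minus strand): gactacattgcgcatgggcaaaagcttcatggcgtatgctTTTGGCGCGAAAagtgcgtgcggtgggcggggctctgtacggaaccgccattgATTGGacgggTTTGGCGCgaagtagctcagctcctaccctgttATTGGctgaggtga
Cdk1 (chr10:69352913-69353062, minus strand): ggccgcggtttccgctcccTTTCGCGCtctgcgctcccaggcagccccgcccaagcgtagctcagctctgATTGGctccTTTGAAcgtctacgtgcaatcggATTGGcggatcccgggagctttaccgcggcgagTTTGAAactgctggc
Cdc20 (chr4:118437344-118437493, minus strand): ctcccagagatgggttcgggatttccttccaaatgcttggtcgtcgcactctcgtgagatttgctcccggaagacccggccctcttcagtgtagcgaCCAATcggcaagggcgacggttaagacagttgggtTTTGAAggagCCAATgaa
Ube2c (chr2:164769779-164769928, plus strand): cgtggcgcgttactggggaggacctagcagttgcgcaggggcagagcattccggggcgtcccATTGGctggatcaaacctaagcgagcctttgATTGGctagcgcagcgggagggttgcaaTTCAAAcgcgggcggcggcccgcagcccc
Mki67 (chr7:135716380-135716529, minus strand): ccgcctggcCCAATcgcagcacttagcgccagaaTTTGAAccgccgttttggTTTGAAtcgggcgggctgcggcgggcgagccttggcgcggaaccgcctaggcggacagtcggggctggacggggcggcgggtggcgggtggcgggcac
In Mcm6 overlapping E2F matches lie on both strands and a further one nearer the start. In Mcm3 the E2F match lies outside the printed stretch. The Cdk1 stretch holds all 3 motifs.

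Summed over the 40 genes, facial skin carried more division transcripts per total UMI than oral mucosa at both times, an order that turned when basal keratinocyte marker UMIs replaced total UMIs as the divisor. The sums were 1923 CPM (1898 to 1948) in the facial section labelled unwounded and 2105 (2076 to 2133) at day 4. Oral mucosa stood at 756 (736 to 776) unwounded and 955 (921 to 991) at day 4. The day 4 oral sum was 1.26-fold (1.21 to 1.32) that of the unwounded section, and the facial sum 1.09-fold (1.07 to 1.12). The oral log2 ratio of 0.34 was 0.00 with edgeR TMM factors, 0.00 in spots with under 1% skeletal muscle marker UMIs and -0.40 per basal keratinocyte marker UMI, so its direction depends on the divisor. The facial log2 ratio of 0.13 was -0.18 without the facial day 4 region of highest level described with the regions. Replication genes moved apart from mitosis genes in oral mucosa. Their sum was 185 CPM (176 to 195) unwounded and 330 (309 to 351) at day 4, a 1.78-fold difference, while the mitosis sum was 570 (553 to 588) and 626 (598 to 655), a 1.10-fold difference. In facial skin both sums differed alike between the labels, replication 716 against 785 (1.10-fold) and mitosis 1207 against 1320 (1.09-fold).

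**Figure D1:**
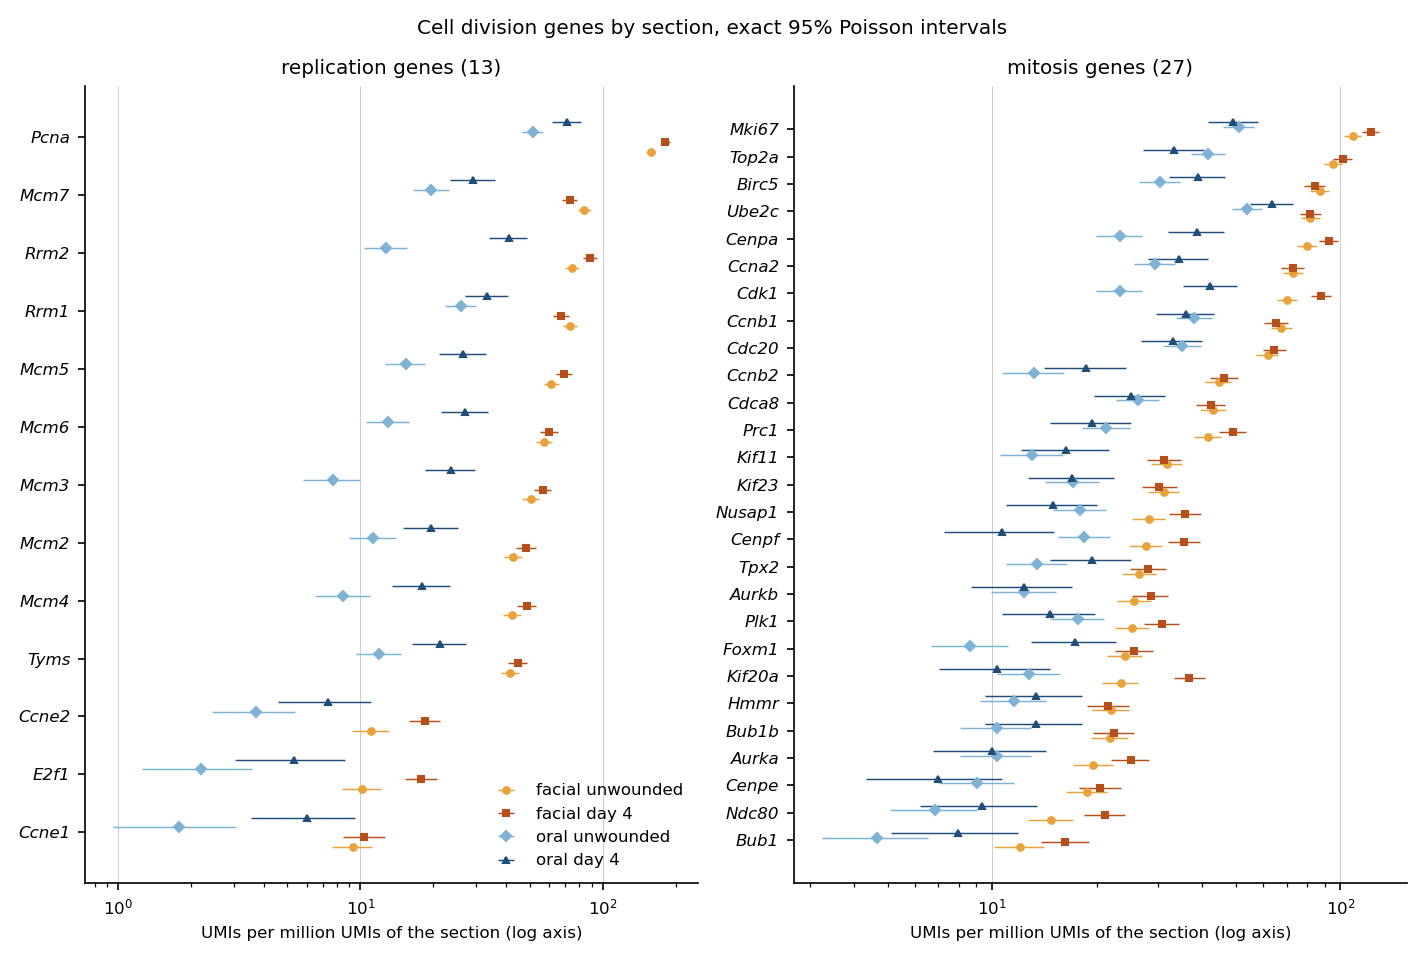
CPM in a section (log axis) for each of the 13 replication genes (left) and 27 mitosis genes (right); points are the 4 sections and lines exact 95% Poisson intervals. The oral sections lie to the left of the facial ones, and among replication genes the day 4 oral point lies to the right of the unwounded oral point for all 13.

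A member was called higher or lower when the 2 sections differed at least 1.5-fold, their Poisson intervals did not overlap and both together held at least 20 UMIs. Among all 12544 genes with that many UMIs in the oral pair, 20.6% were called higher at day 4 and 3.56% lower. Of the 13 replication genes 8 were called higher and 0 lower, and their median log2 ratio, with 10 CPM added to both sides, was 0.48 against 0.17 over all genes. Of the 27 mitosis genes 3 were called higher and 1 lower, and their median was -0.00. With TMM factors 3 members were called higher (Mcm3, Mcm6 and Rrm2) in place of 11, and 2 were called lower in place of 1. The mitosis share of calls lies below the background and the replication share above it, and neither was tested. In facial skin 6.09% of 14231 genes were called higher at day 4 and 8.59% lower, against 2 of 13 replication and 1 of 27 mitosis genes higher and 0 lower, with medians of 0.14 and 0.09 against -0.03 over all genes.

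Cyclin E and E2F1, which open the replication programme, were the scarcest of the replication genes in counts. In the text that follows, 4 values in a row are always the facial section labelled unwounded, facial day 4, oral unwounded and oral day 4, in CPM. Ccne1, a cyclin E, stood at 9.30, 10.4, 1.78 and 5.99, from 111, 103, 13 and 18 UMIs. It was called higher at day 4 in oral mucosa (3.36-fold, log2 ratio 1.75, 0.64 to 2.90), and the width of that interval reflects the few counts. Ccne2, the other cyclin E, stood at 11.1, 18.4, 3.71 and 7.32. It was called higher at day 4 in facial skin (1.67-fold, log2 ratio 0.74, 0.41 to 1.07), and its oral log2 ratio of 0.98 (0.10 to 1.85) came with overlapping Poisson intervals. E2f1, the transcription factor that drives many replication genes, stood at 10.1, 17.8, 2.20 and 5.33, and was called higher in facial skin (1.76-fold) but not in oral mucosa (2.42-fold, on 16 and 16 UMIs).

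The genes of the replicative helicase were low in unwounded oral mucosa and nearer to skin at day 4. Mcm2 stood at 42.8, 48.3, 11.3 and 19.6. Mcm3 stood at 50.5, 56.5, 7.69 and 23.6. Mcm4 stood at 42.3, 48.6, 8.51 and 18.0. These 3 subunits were called higher at day 4 in oral mucosa, at 1.74-, 3.07- and 2.11-fold. Mcm5 stood at 61.5, 69.4, 15.4 and 26.6. Mcm6 stood at 57.3, 60.1, 13.04 and 26.96. Mcm7 stood at 83.9, 73.0, 19.6 and 29.3. Mcm5 and Mcm6 were also called higher in oral mucosa (1.73- and 2.07-fold), while Mcm7 reached 1.49-fold and missed the threshold. In facial skin none of the 6 was called, with log2 ratios between -0.20 for Mcm7 and 0.20 for Mcm4. Summed, the 6 subunits stood at 338, 356, 75.5 and 144 CPM.

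Among the clamp and the enzymes of nucleotide supply, Rrm2 differed most at the oral wound. Rrm2, the ribonucleotide reductase subunit whose level follows the cell cycle, stood at 75.0, 88.4, 12.8 and 40.9. Its oral log2 ratio was 1.68 (1.28 to 2.09), or 3.21-fold, and its facial log2 ratio 0.24 (0.10 to 0.37). Rrm1, the partner subunit, stood at 73.1, 67.5, 25.9 and 33.3 and was called in neither tissue between the times. The subunits of one enzyme thus differed in how far the oral sections lay apart. Tyms, thymidylate synthase, stood at 41.5, 44.6, 11.9 and 21.3 and was called higher in oral mucosa (1.78-fold). Pcna, the polymerase clamp, which also serves DNA repair, stood at 158, 182, 51.5 and 71.2, with an oral ratio of 1.38-fold that was not called.

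The kinases and cyclins that start mitosis did not act as one group in oral mucosa. Cdk1, the mitotic kinase, stood at 70.3, 88.2, 23.2 and 42.3, and was called higher at day 4 in oral mucosa (1.82-fold). Foxm1, the transcription factor of late cell cycle genes, stood at 24.0, 25.6, 8.65 and 17.3, and was called higher too (2.00-fold). Their partners were not called between the times. Ccnb1, a cyclin B, stood at 67.6, 65.3, 38.0 and 36.0. Ccnb2, a further cyclin B, stood at 44.6, 46.2, 13.2 and 18.6. Ccna2, cyclin A, stood at 73.2, 72.9, 29.2 and 34.3. The oral log2 ratio of Ccnb1 was -0.08 (-0.42 to 0.24), which leaves out a 1.5-fold difference upward. Plk1, a kinase of mitotic entry and exit, stood at 25.2, 30.7, 17.6 and 14.6. Aurka, the spindle pole kinase, stood at 19.5, 24.96, 10.3 and 9.99. Neither kinase was called between the times in either tissue.

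Genes of chromosome structure, centromere and kinetochore held 1 gene called higher and the only member called lower in oral mucosa. Cenpa, the centromeric histone, stood at 80.2, 92.5, 23.2 and 38.6 and was called higher at day 4 in oral mucosa (1.66-fold). Cenpf, a large kinetochore protein, stood at 27.6, 35.5, 18.4 and 10.7, from 330, 353, 134 and 32 UMIs. It was called lower in oral mucosa (1.73-fold lower, log2 ratio -0.79, -1.39 to -0.22), and its facial log2 ratio was 0.36 (0.14 to 0.58). Mki67, the widely used proliferation marker that coats mitotic chromosomes, stood at 108, 122, 51.1 and 49.3. Top2a, the topoisomerase that untangles chromosomes, stood at 95.1, 102, 41.7 and 33.3. These common markers of division were called between the times in neither tissue, with oral log2 ratios of -0.05 (-0.34 to 0.23) and -0.33 (-0.67 to 0.00).

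The remaining kinetochore, checkpoint and passenger complex genes were not called between the times. Cenpe, the kinetochore motor, stood at 18.7, 20.4, 9.06 and 6.99. Ndc80, which binds microtubules, stood at 14.7, 21.0, 6.86 and 9.32. The checkpoint kinase Bub1 stood at 11.98, 16.2, 4.67 and 7.99. Bub1 was 1.71-fold at day 4 in oral mucosa with overlapping intervals, and Bub1 and Ndc80 were 1.35- and 1.43-fold in facial skin. Bub1b, its partner in the checkpoint, stood at 21.8, 22.3, 10.3 and 13.3. Aurkb, the kinase of the passenger complex, stood at 25.5, 28.5, 12.4 and 12.3. Birc5, survivin, stood at 87.1, 84.5, 30.3 and 38.9. In that complex Cdca8, borealin, stood at 43.1, 42.4, 26.2 and 24.97, so 2 of its 3 listed members lay within 1.05-fold between the oral sections and Birc5 at 1.28-fold.

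Spindle and cytokinesis genes included the 1 mitosis gene called in facial skin. Kif20a, a motor of the central spindle, stood at 23.4, 36.8, 12.8 and 10.3 and was called higher at day 4 in facial skin (1.58-fold). Kif11, the motor that separates spindle poles, stood at 31.7, 31.1, 13.04 and 16.3. Kif23, a motor of cytokinesis, stood at 31.1, 30.2, 17.0 and 17.0. The 3 motors thus differed, with Kif11 and Kif23 within 1.03-fold between the facial sections. Prc1, which bundles midzone microtubules, stood at 41.6, 49.0, 21.3 and 19.3. Nusap1, a spindle-associated protein, stood at 28.1, 35.8, 17.8 and 14.98. Tpx2, which activates Aurora A at the spindle, stood at 26.5, 28.0, 13.5 and 19.3. Of these, Tpx2 lay highest in the day 4 over unwounded oral ratio, at 1.44-fold. Hmmr, a spindle and hyaluronan-binding protein, stood at 21.9, 21.5, 11.5 and 13.3. Cdc20, an activator of the anaphase-promoting complex, stood at 61.7, 64.6, 35.1 and 32.95. Ube2c, its ubiquitin-conjugating enzyme, stood at 82.0, 81.9, 53.9 and 63.6, and none of these 3 was called between the times.

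**Figure D2:**
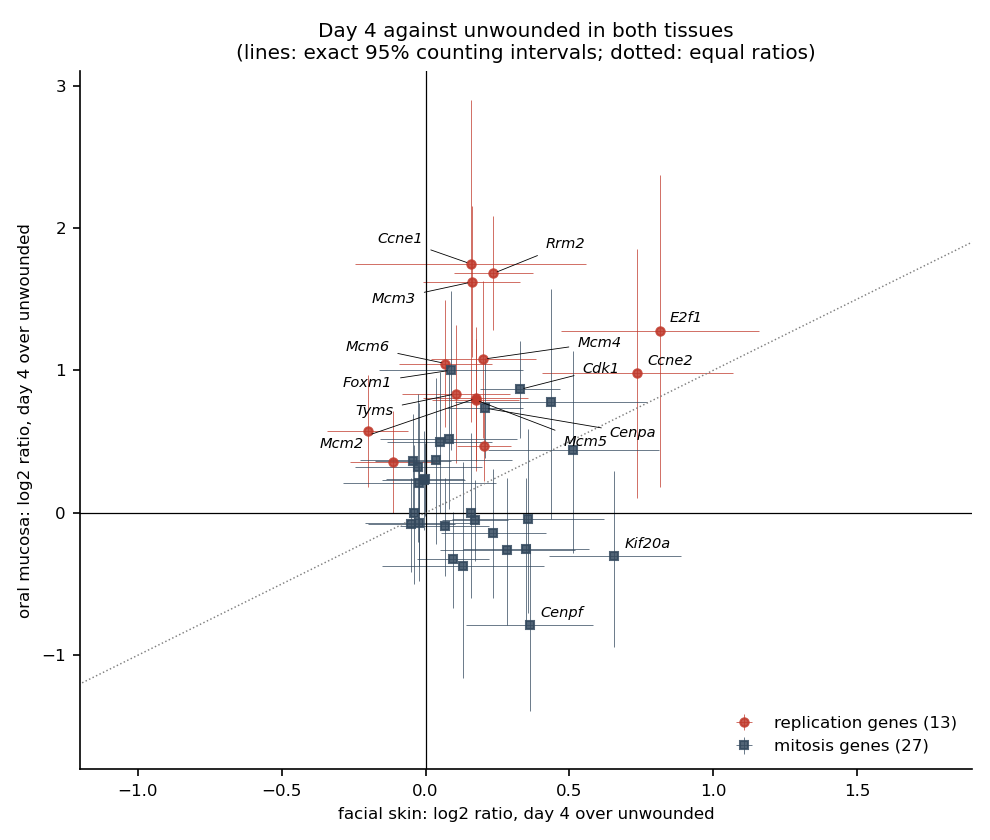
Log2 ratio of day 4 over unwounded in facial skin (x axis) and oral mucosa (y axis) for the 13 replication genes (circles) and 27 mitosis genes (squares), with exact 95% counting intervals and names of the genes called in either tissue. All 13 replication genes lie above 0 in oral mucosa, 13 of the 27 mitosis genes do, and Cenpf lies lowest.

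With the facial labels as given and per total UMI, the replication sum differed in its wound ratio between the tissues. The mitosis sum did not beyond counting error. The difference of the log2 ratios, oral minus facial, was 0.70 (0.57 to 0.82) for the replication sum and 0.00 (-0.08 to 0.09) for the mitosis sum, with approximate intervals for counting error. Another divisor, such as one with the TMM factors (1.24, 1.19, 0.732 and 0.924 in the 4 sections), shifts both differences by one amount. Only the gap between both sums is free of the divisor, and where each lies relative to 0 is not. By gene this difference had an interval above 0 for 11 of 13 replication genes and below 0 for none, and the other two were Ccne2 and E2f1, the genes called in facial skin. Of 27 mitosis genes 4 lay above 0 (Cdk1, Birc5, Cenpa and Foxm1) and 5 below (Top2a, Cenpf, Kif20a, Nusap1 and Plk1). The largest differences were those of Ccne1 (1.59), Mcm3 (1.46), Rrm2 (1.45) and Cenpf (-1.15). With the facial labels exchanged, a comparison added after seeing the data because neutrophil markers ran against them, the difference was 0.96 (0.84 to 1.09) for the replication sum and 0.26 (0.18 to 0.35) for the mitosis sum. Then 11 of 13 replication and 7 of 27 mitosis genes had intervals above 0 and none below. Neither set of counts was made over all genes, so they have no background share beside them. The median log2 ratio over all genes, with 10 CPM added, was 0.17 in the oral pair and -0.03 in the facial pair. No test across sections or animals stands behind these differences.

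Between tissues nearly every member was called lower in oral mucosa per total UMI, as were most genes in the unwounded pair. In the unwounded pair 59.7% of 14026 genes were called lower in oral mucosa and 10.1% higher, and 39 of the 40 members were called lower, all but Plk1 (1.43-fold lower). At day 4, 35.5% of 13633 genes were called lower and 11.5% higher, and 36 of the 40 members were called lower, all but Ccne1, Tpx2, Ube2c and Foxm1. Median log2 ratios of replication and mitosis genes were -1.45 and -0.65 unwounded, against -0.47 over all genes, and -0.95 and -0.80 at day 4, against -0.27. With TMM factors 18 members were called lower in the unwounded pair, and Cenpf, Nusap1, Ube2c and Cdca8 turned to log2 ratios between 0.05 and 0.18. No member was called higher in oral mucosa at either time. In the unwounded pair the replication genes were 2.82- to 6.57-fold lower (Rrm1 and Mcm3 at the ends) and the mitosis genes 1.43- to 3.46-fold lower (Plk1 and Cenpa). At day 4 these ranges were 1.73- to 3.35-fold (Ccne1 and E2f1) and 1.29- to 3.57-fold (Ube2c and Kif20a). So replication genes lay further below skin than mitosis genes in the unwounded pair, with medians of 4.28- and 2.06-fold, and nearer to them at day 4, with 2.46- and 2.13-fold. The muscle and basal keratinocyte shares given above moved with this comparison. In spots with under 1% skeletal muscle marker UMIs the log2 ratio of all members, oral over facial, was -0.28 unwounded and -0.39 at day 4, against -1.35 and -1.14 over all spots. Set against basal keratinocyte marker UMIs in place of all UMIs, it turned to 1.03 and 0.35, so the direction between tissues depends on what the count is divided by.

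The ratio of replication to mitosis UMIs needs no such divisor, since both sums come from one section, although the value itself depends on which genes were listed. It was 0.593 (0.578 to 0.610) in the facial section labelled unwounded and 0.594 (0.578 to 0.611) at day 4. Oral mucosa had 0.325 (0.305 to 0.346) unwounded and 0.527 (0.487 to 0.569) at day 4. The log2 difference between the times was 0.70 (0.55 to 0.84) in oral mucosa and 0.00 (-0.05 to 0.06) in facial skin. Unwounded oral mucosa lay 0.87 log2 below the facial section (-0.97 to -0.77), and day 4 oral mucosa 0.17 below (-0.29 to -0.06). With narrower lists of 10 replication and 22 mitosis genes the 4 ratios were 0.820, 0.811, 0.427 and 0.692, in the same order of tissues. Genes outside the 40, 38 for replication and 50 for mitosis, gave 0.412, 0.422, 0.333 and 0.376, so unwounded oral mucosa was again lowest but by less.

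Lists of other cell cycle genes at the oral wound are read against the 20.6% of all genes called higher and 3.56% called lower. Of 36 other replication genes that could be compared 9 were called higher and 1 lower, among them Rfc3 (2.62-fold, a clamp loader subunit) and Gmnn (2.12-fold, the licensing inhibitor geminin), with Cdca7 1.82-fold lower. Of 50 other mitosis genes 5 were called higher and 2 lower, among them Gtse1 (3.33-fold), Tacc3 (1.79-fold), Aspm (2.25-fold lower, a spindle pole protein) and Pttg1 (1.82-fold lower, securin). Aspm and Pttg1 thus stood with Cenpf on the lower side. Of 16 first gap phase genes (cyclins, kinases, E2F factors and other regulators) 5 were called higher and 0 lower. They were Skp2 (2.88-fold), Cdk2 (2.09-fold), Cdk4 (1.89-fold), Cdk6 (1.84-fold) and Myc (1.81-fold). Of 19 brakes of the cycle 4 were called higher and 0 lower, led by Cdkn1c (4.31-fold, p57) and Gadd45a (3.60-fold). The count of brakes called higher lies at the share of all genes, that of other replication genes near it, and that of other mitosis genes below it. With 10 CPM added, the median log2 ratio of other replication genes was 0.21 against 0.17 over all genes, while that of the 13 members was 0.48. The other replication sum was 1.37-fold at day 4 and the other mitosis sum 1.21-fold. So the separation of replication from mitosis was smaller in genes outside the 40.

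In facial skin at day 4, where 6.09% of all genes were called higher and 8.59% lower, the same lists gave few calls, except the brakes. Other replication genes had 1 of 38 called higher (Hells, 1.79-fold), other mitosis genes 2 of 50 (Espl1 and Knstrn, both 1.64-fold), and first gap phase genes 1 of 17 higher (Mycn, 1.59-fold) and 1 lower (Ccnd3, 1.52-fold lower). Of 20 brakes 5 were called higher, led by Cdkn2a (4.81-fold, on 10 and 40 UMIs), Cdkn1c (4.33-fold, on 15 and 54 UMIs) and Cdkn2b (2.00-fold), and Btg2 was called lower (2.12-fold). Between tissues, other replication genes were called lower in oral mucosa for 36 of 38 unwounded and 34 of 38 at day 4. Other mitosis genes were called lower for 46 of 50 and 40 of 50, with Pttg1 higher in the unwounded pair (1.86-fold). First gap phase genes were called lower for 17 of 17 and 7 of 17, and brakes for 15 of 19 and 14 of 20, with Cdkn1c higher at both times (5.90- and 5.88-fold). Beside the 59.7% and 35.5% of all genes called lower, the first gap phase count lies near the background at day 4.

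Spots were grouped into regions within each section by their expression, with all cell cycle genes left out of the grouping, and regions with at least 1% of the UMIs of a section were compared. There were 24 such regions, 8, 7, 3 and 6 in the 4 sections, and they are called here by their leading genes. In all 3 sections other than the facial one labelled unwounded, 1 region held most members at their highest level. That region was the highest for 40 of 40 members in facial day 4, for 40 of 40 in unwounded oral mucosa and for 28 of 40 in day 4 oral mucosa. The share of all genes highest in the same regions was not counted, and unwounded oral mucosa had only 3 regions. These counts are therefore not read as particular to the members. In the facial section labelled unwounded the highest level was spread over 5 regions, at most 16 of 40 members in one.

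**Figure D3:**
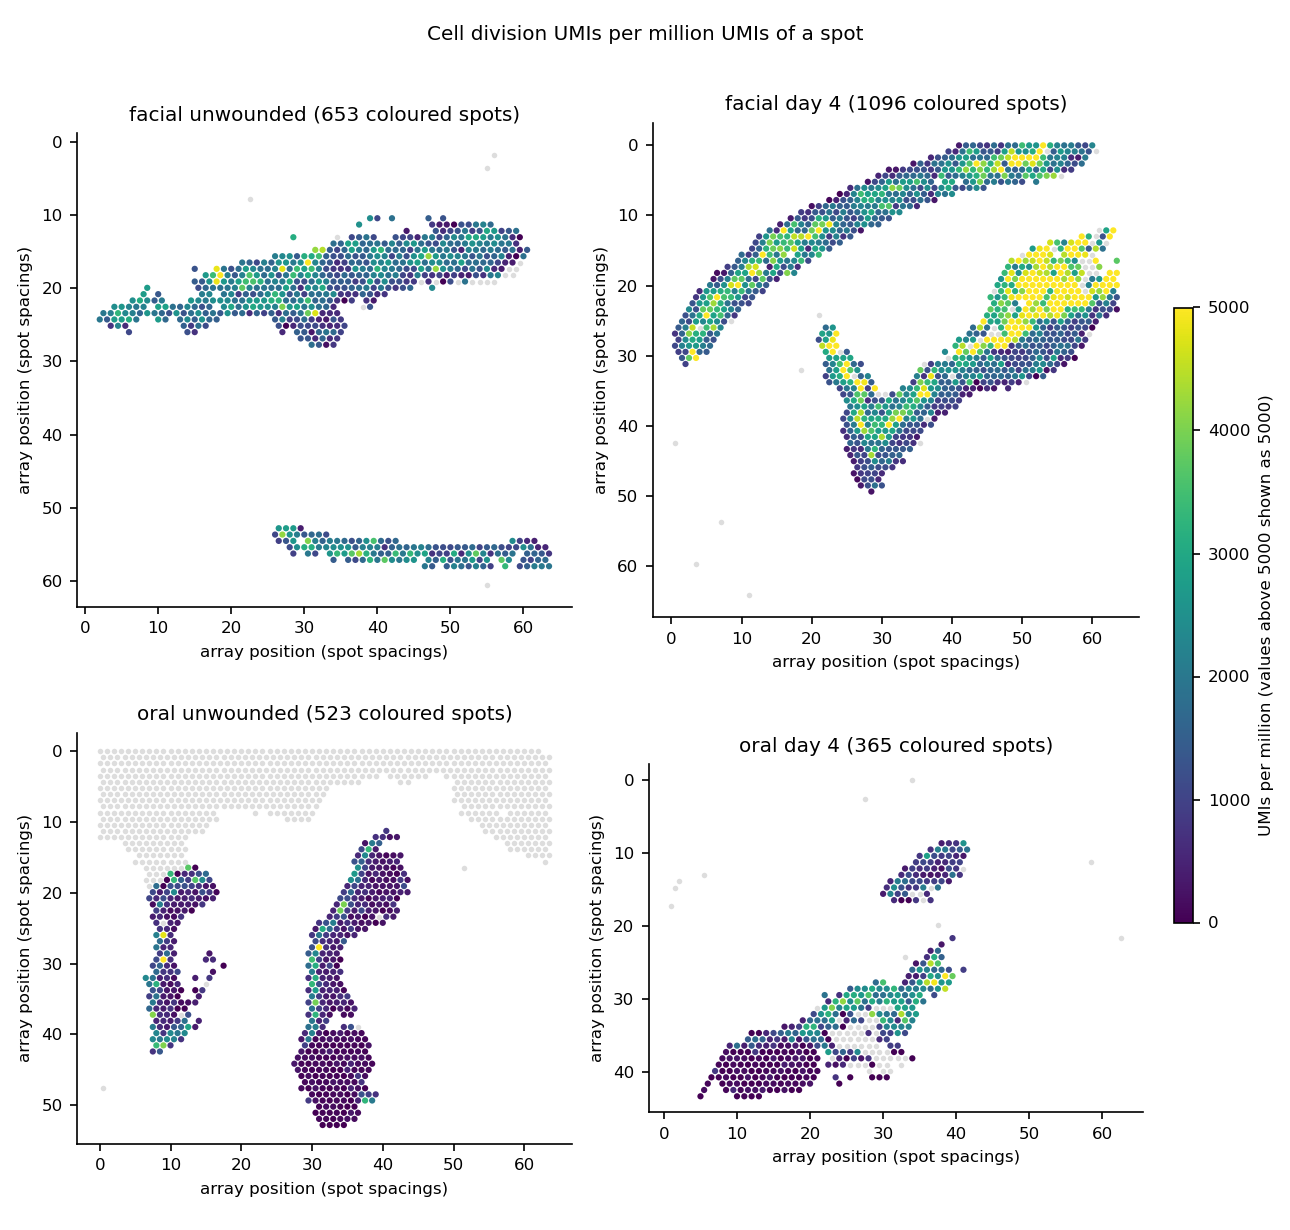
Cell division CPM of a spot at the array position of each spot, for spots with at least 1000 UMIs (653, 1096, 523 and 365 in the 4 sections); grey spots held fewer UMIs, and axes are in spot spacings. High values fill one corner of a tissue piece in facial day 4 and follow thin bands in both oral sections, beside wide areas near 0.

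In facial skin at day 4 the region of most division was led by Car3, Cfd, Hp, Lhx2, Dct and Ptch1. Car3, Cfd and Adipoq are fat cell genes, Lhx2 is a hair follicle transcription factor, Ptch1 is a hedgehog receptor and Dct is a melanocyte enzyme. It held 395 spots, 15.4% of the UMIs and 31.8% of the division UMIs of the section, at 4347 CPM (4243 to 4453). The region next in level, led by the muscle genes Acta1 and Mylpf, stood at 2176 (2070 to 2286), a 2.00-fold gap (1.89 to 2.11). Pcna reached 392.03, Rrm2 231, Top2a 210 and Mki67 201 CPM there. Its spots were shallow, with a median of 2704 UMIs against 5372 in the section, and among spots with at least 1000 UMIs grouped anew the highest region still stood at 4568. At a finer resolution its spots fell mainly into 3 regions at 4630, 4286 and 3472, of which the first was led by fat genes and Krt25 and the second by Coch, Wif1, Sox11 and Krt28, genes of the follicle and its sheath.

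**Figure D4:**
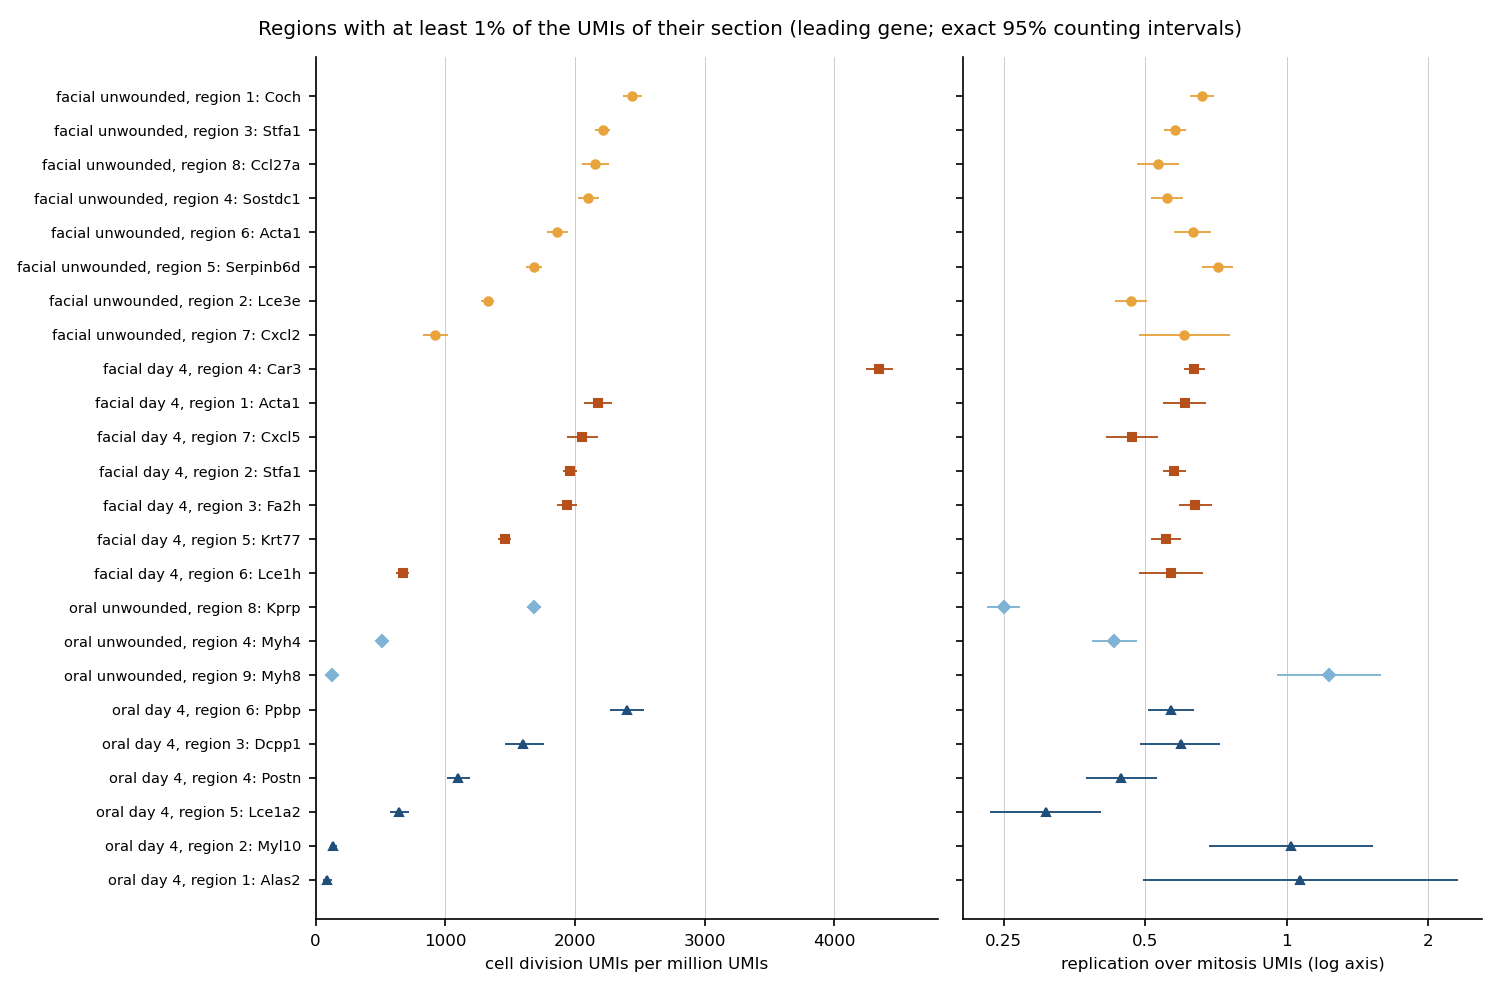
Cell division CPM (left) and the ratio of replication to mitosis UMIs (right, log axis) in the 24 regions with at least 1% of the UMIs of their section, each labelled with its leading gene, with exact 95% counting intervals. The highest level is that of facial day 4 region 4 at 4347, and the lowest ratio that of unwounded oral region 8 at 0.2499.

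The other facial day 4 regions lay close together or lower. Wound bed genes (Cxcl5, Spp1, Cthrc1 and Lox) led a region at 2054 (1936 to 2177), the wound keratins Krt6b, Krt6a and Krt16 a region at 1964 (1911 to 2019), and the lipid genes Fa2h, Far2 and Elovl3 of sebaceous glands a region at 1938 (1865 to 2014). Neighbours among these 3 and the muscle region did not differ beyond their counting intervals. The region of Krt77, Krt2 and Krt15 stood at 1458 (1407 to 1510), and that of the cornified envelope genes Lce1h, Lce1i and Kprp at 673 (624 to 725), 6.46-fold below the highest. Division was thus lowest where genes of the outermost epidermis led.

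In the facial section labelled unwounded the spread was narrower. The highest region was led by Coch, Tbx1, Krt71, Krt25, Lhx2 and Lgr5, genes of hair follicle and inner root sheath, at 2444 (2374 to 2516). The region of Stfa1, Areg, Il19 and Krt6b stood at 2213 (2157 to 2271) and held 25.5% of the division UMIs. At the finer resolution 28 spots led by Krt71, Krt28, Krt25 and Gli1 stood at 3078 (2930 to 3231). Cornified Lce3 genes led a region at 1327 (1278 to 1376), and the inflammatory genes Cxcl2, Il1b and Cd14 the lowest one, at 921 (827 to 1023). In both facial sections follicle genes were therefore among the leading genes of the region with the highest level.

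In unwounded oral mucosa most division UMIs lay in the epithelium. The region led by Kprp, Lce1b, Lce1d and Lyg1 stood at 1683 (1628 to 1738) and held 66.1% of the division UMIs on 29.7% of all UMIs. The region of Myh4, Myom2, Cfd and Acta2 stood at 513 (488 to 539), and that of the muscle genes Myh8, Myh2 and Actn3 at 126 (111 to 142), 13.3-fold (11.8 to 15.2) below the first. At the finer resolution the epithelium fell mainly into a basal part of 68 spots, led by Krt5, Col17a1, Krt15 and Trp63 but also by Mki67, Cks2 and Hmgb2, at 2320 (2237 to 2405), and a cornified part of 76 spots led by Lce genes at 807 (750.4 to 868). Mki67 among the leading genes of the basal part was not used in the grouping. The ratio of replication to mitosis UMIs was 0.256 (0.234 to 0.280) in the basal and 0.235 (0.194 to 0.283) in the cornified part, so it did not differ between them beyond counting error.

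At day 4 the oral region of most division was led by Ppbp, Krt17, Sprr2f, Aldh1a3 and Cxcl3. Krt17 and Sprr2f are genes of wounded epithelium, and Ppbp and Cxcl3 are chemokine genes. This region had the highest basal keratinocyte marker share of the section (1.65%) and is called wound epithelium below, though its spots may hold other cells. It stood at 2400 (2273 to 2531) in 64 spots and held 47.0% of the division UMIs on 18.7% of all UMIs. A region led by Dcpp1, Muc19 and Muc5b, gland genes, followed at 1603 (1458 to 1758). At the finer resolution that region came apart, into 92 spots led by the gland genes at 777 (641 to 933) and 50 spots led by Ccl2, Ms4a6d, C3ar1 and Spp1, genes of macrophages, at 2548 (2280 to 2839). The macrophage-led spots thus held more division CPM than the gland-led ones and lay within counting error of the epithelial region. The region of Postn, Mybph, Thbs4 and Ankrd1 stood at 1102 (1017 to 1192) and the cornified epithelium of Lce1a2 and Asprv1 at 647 (577 to 724). Muscle regions, led by Myh13 and Myh2 or by Alas2 with muscle genes, stood at 137 (112 to 165) and 89.5 (60.8 to 127), 26.8-fold below the highest for the last.

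Across regions the ratio of replication to mitosis UMIs was lowest in oral epithelium without a wound. It was 0.2499 (0.230 to 0.271) there, 0.308 (0.234 to 0.402) in the cornified epithelium at day 4, and 0.567 (0.506 to 0.634) in the wound epithelium at day 4. All 15 facial regions lay between 0.467 and 0.713. The oral muscle regions had ratios of 1.23, 1.02 and 1.07, on 256, 105 and 31 division UMIs. The interval of the unwounded muscle region was 0.952 to 1.58.

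The 2 oral epithelial regions were set against each other gene by gene, a choice made after the regions were seen. Among regions with at least 1% of their section's UMIs, they have the highest basal keratinocyte marker share, 0.643% unwounded and 1.65% at day 4. Of the 13 replication genes 12 had intervals above equality at day 4, with a median of 2.87-fold, and only Rrm1 did not (1.43-fold, 0.946 to 2.11). The share of all genes with such intervals was not counted for these regions, so the count has no background beside it. In the whole oral sections 20.6% of all genes were called higher at day 4 by the stricter rule above. Rrm2 was 28.2 unwounded and 133 CPM at day 4 (4.73-fold, 3.33 to 6.75). Mcm3 was 17.1 and 69.4 (4.06-fold, 2.52 to 6.54), and Ccne1 3.70 and 23.1 (6.25-fold, 2.40 to 17.4) on 8 and 13 UMIs. Pcna was 75.3 and 165 (2.20-fold, 1.68 to 2.85). The unwounded region holds basal and cornified epithelium together, and its basal marker share was the lower. In the basal-rich spots of both oral sections the replication sum was 414 CPM unwounded and 652 at day 4, or 1.58-fold (1.397 to 1.78), and the mitosis sum 0.848-fold (0.788 to 0.913).

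Mitosis genes in the same 2 regions had a median of 1.18-fold, and 5 of 27 had intervals above equality and 1 below. Those above were Tpx2 (1.897-fold), Foxm1 (1.83-fold), Cenpa (1.77-fold), Cdk1 (1.70-fold) and Ube2c (1.56-fold). Cenpf was the 1 below, at 45.7 unwounded and 19.6 at day 4 (2.34-fold lower), on 99 and 11 UMIs. Mki67 was 122 unwounded and 99.6 at day 4 (0.813-fold, 0.598 to 1.09), and Ccnb1 87.8 and 90.7. The corresponding facial regions, with basal marker shares of 2.45% and 2.35%, had medians of 0.879-fold for replication and 0.872-fold for mitosis genes. There 1 of 13 replication genes lay above and 3 below equality, and 1 and 6 of 27 mitosis genes. For neither tissue was the share over all genes counted in these regions.

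**Figure D5:**
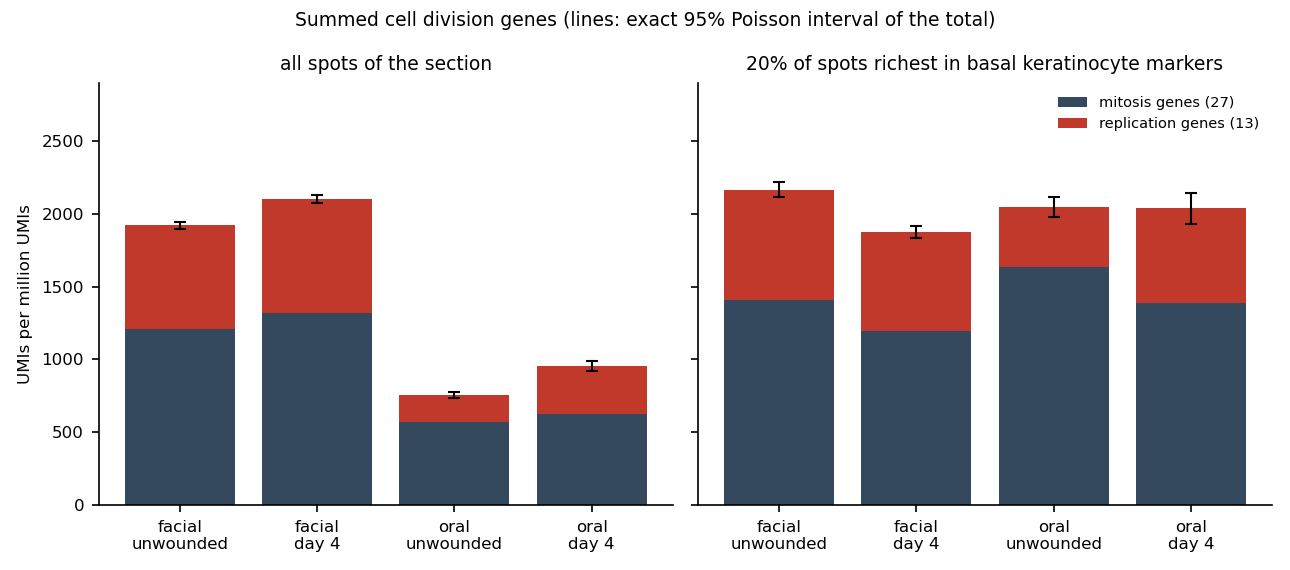
Summed mitosis (dark) and replication (red) CPM in all spots of each section (left) and in the 20% of spots richest in basal keratinocyte markers (right); lines are exact 95% Poisson intervals of the total. The sections range from 756 to 2105 over all spots and from 1877 to 2167 in basal-rich spots.

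Spots rich in basal keratinocyte markers differed less between sections in their summed division genes than whole sections did. Among spots with at least 1000 UMIs, the 20% with the highest share of these markers (131, 219, 105 and 73 spots) stood at 2167 (2113 to 2221), 1877 (1834 to 1920), 2047 (1978 to 2119) and 2038 (1935 to 2146) CPM. In oral mucosa that was 5.34-fold (5.05 to 5.64) the level of the other spots when unwounded and 3.30-fold (3.06 to 3.55) at day 4, in facial skin 1.17-fold and 0.833-fold. The marker share in these spots still differed, at 2.58%, 2.23%, 0.810% and 1.63%. Their ratios of replication to mitosis UMIs were 0.540 (0.512 to 0.569), 0.565 (0.539 to 0.592), 0.253 (0.232 to 0.276) and 0.471 (0.421 to 0.526). So the lower ratio of unwounded oral mucosa was present in basal-rich spots too. Its summed level there was 0.945-fold (0.906 to 0.986) that of the facial section labelled unwounded and 1.09-fold (1.05 to 1.14) that of facial day 4. Its replication sum was 0.545-fold and 0.611-fold those of the same sections, and its mitosis sum 1.16-fold and 1.36-fold.

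Other marker lists placed division differently in each section. In unwounded oral mucosa the spots richest in skeletal muscle markers held 0.136-fold the level of the others, and at day 4 0.0883-fold. At day 4 the oral spots richest in macrophage markers held 2.68-fold (2.45 to 2.91) and those richest in neutrophil markers 2.65-fold (2.45 to 2.86) the level of the others. Spots richest in the inner root sheath list, at 0.0415% of UMIs, stood at 2.68-fold and those richest in wound keratinocyte markers at 2.62-fold. Only 6 of the 10 inner root sheath genes had a UMI in that oral section, with 294 UMIs in all. In facial day 4 the richest lists were Schwann cell (1.75-fold), adipocyte (1.62-fold) and mast cell markers (1.57-fold), with inner root sheath markers at 1.31-fold and differentiated epidermis at 0.432-fold. In the facial section labelled unwounded differentiated epidermis gave 0.604-fold and inner root sheath markers 0.984-fold. Hair matrix and shaft markers gave 1.21-fold there, 0.872-fold in facial day 4, 4.37-fold in unwounded and 0.968-fold in day 4 oral mucosa. Genes of that list with a UMI numbered 11, 10, 9 and 8 of 15 in the 4 sections. The list took 0.256% of UMIs in unwounded oral mucosa against 0.00673% in the facial section labelled unwounded. In oral mucosa neither this list nor the inner root sheath list is therefore read as hair follicle cells. These lists share spots, so no list is shown to be the dividing cell type.

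How division UMIs were spread over spots is given as a description, since spots were ranked by the same counts and differ in depth between sections. The 10% of spots with the most division CPM held 45.4% of the division UMIs and 12.7% of all UMIs in unwounded oral mucosa, and 28.2% and 8.09% at day 4. In facial skin they held 20.01% and 10.8% in the section labelled unwounded and 12.8% and 4.21% at day 4. After each spot was thinned to 1000 UMIs, a division UMI was seen in 77.9% of spots (74.6 to 81.1) in the facial section labelled unwounded, 84.6% (82.3 to 86.7) in facial day 4, 45.1% (40.8 to 49.5) in unwounded and 56.4% (51.2 to 61.6) in day 4 oral mucosa. Thinning left out 18, 45, 765 and 65 spots with fewer UMIs, and the shares without thinning, over spots with at least 1000 UMIs, were 99.1%, 99.5%, 91.6% and 81.9%. Replication alone was seen in 18.5% of thinned spots in unwounded oral mucosa and 32.1% at day 4, and mitosis in 35.8% and 43.8%.

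Replication and mitosis genes shared spots. After thinning to 3000 UMIs, spots with 4 or more mitosis UMIs held 403 replication CPM (320 to 501) in unwounded oral mucosa, against 117 (92.4 to 147) in spots with none. At day 4 the oral values were 781 (661 to 917) and 110 (76.7 to 153). Facial values were 760 (702 to 821) against 417 (309 to 549) in the section labelled unwounded and 1135 (1076 to 1196) against 350 (269 to 447) at day 4. At equal depth and in spots with 4 or more mitosis UMIs, unwounded oral mucosa thus held the fewest replication UMIs of the 4 sections.

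Across the 24 regions the genes whose level most resembled that of the summed members were Ptma, Hnrnpa3, Srsf1, Nono, Ssrp1, Tra2b, Ncl, Slc7a1, Srsf3 and Sf3a1. Their Pearson correlations of log2(CPM + 10) ran from 0.969 to 0.984, among 8166 genes with at least 500 UMIs that were in no cell cycle list. Ptma, prothymosin alpha, ranged from 139 to 3788 CPM over the regions. The lowest correlations were those of the muscle-enriched genes Smtnl2 (-0.92), Sbk2, Mylk4, Asb2 and Mss51. Regions of a section share a library, a depth and a muscle gradient, so this is a description of where the genes lie.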

How the data were processed

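Spatial RNA counts of 4 sections were analysed, 1 per group, so no test between groups was run. Per the file headers the deposited UMI counts came from Space Ranger 1.3.1, and per the submitters' processing notes the build was mm10 and Seurat was used; the matrices hold raw counts of spots under tissue. Later and earlier times and other assays of the series were not analysed here. Groups came from the labels, which name no animals.

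UMIs were summed per gene and section, scaled to 1000000 UMIs (CPM), and given exact 95% Poisson or conditional intervals, which cover counting error only. A gene was called at 1.5-fold with non-overlapping intervals and at least 20 UMIs over both sections, with a floor of 3 UMIs for zeros. In oral counts simulated with counting error only, the rule found 88.0% of doubled and 74% of halved genes, and called 0.235% of unchanged ones. The changed genes were drawn above a higher minimum than the 20 UMIs of the rule. The shares found therefore do not cover the scarcest members, such as Ccne1, E2f1 and Ccne2. Differences between sections or animals were not simulated, so the last share is no error rate for the calls made here. Regions came from scanpy 1.11.5 on spots scaled to 10000 UMIs (2000 variable genes without cell cycle genes, 30 components, 15 neighbours, Leiden resolution 0.5). TMM factors came from edgeR 4.0.16. Spots were thinned to 1000 or 3000 UMIs with a fixed seed, and doublets do not apply to spots. Alternatives covered the divisor, the fold, narrower lists, clustering settings, spot filters and parts of a section left out. The members and lists were chosen with earlier results of these data known. All 40 members were named; other genes were named where called, and region genes by rank. Leaving out regions, setting basal-marker regions side by side and reading finer-resolution genes were chosen after seeing the data.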

Additional observations from a re-analysis of the deposited data

Results flagged for a closer look

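Btg2, an antiproliferative gene listed among the brakes of the cycle and not 1 of the 40 members, was called in opposite directions at day 4 in the tissues. Its log2 ratio of day 4 over unwounded was -1.08 in facial skin and 0.71 in oral mucosa. The difference between tissues was not tested, since each group was 1 section, and the facial pair also differed in neutrophil markers against its labels; their part in the result was not tested.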

How the results depend on the processing

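Each group was 1 section, so depth and section cannot be separated from condition. No paired analysis was possible because each group holds 1 section. Log2 ratios of all members under other settings follow, with the cause of each shift not tested. Facial day 4 over unwounded (0.13) was 0.20 with TMM, 0.18 without mitochondrial and the 50 most abundant genes in the total, 0.28 per basal marker UMI, -0.18 without the highest facial day 4 region and 0.56 as a mean over spots. Oral day 4 over unwounded (0.34) was 0.0030, 0.12, -0.40 and 0.56 under the matching settings, 0.0036 in muscle-poor spots and 0.23 without the salivary region. Oral over facial unwounded (-1.35) was -0.58, -0.82 and 1.03 with TMM, the reduced total and the basal divisor, and -0.28 in muscle-poor spots. Oral over facial at day 4 (-1.14) was -0.78, -0.88, 0.35 and -1.31 with TMM, reduced total, basal divisor and spot mean, -0.39 in muscle-poor spots, -1.24 without the salivary region and -0.83 without the facial day 4 region. Leaving out 1 of 4 parts of a section gave 0.017 to 0.23, -0.33 to 0.99 (with -0.18 without oral unwounded part 4), -1.91 to -0.82 and -1.81 to -0.48. Facial calls higher went from 3 to 1 without the highest region and 0 at 2-fold. Oral calls higher went from 11 to 3 with TMM, 7 with the reduced total and 6 at 2-fold, and calls lower from 1 to 2 with TMM and 0 at 2-fold. Oral calls lower against facial skin, unwounded, went from 39 to 18 with TMM and 22 with the reduced total. With TMM the log2 ratios of Cenpf, Nusap1, Ube2c and Cdca8 there turned to 0.18, 0.11, 0.16 and 0.049. Of 90 member calls, 54 held with TMM, 64 with the reduced total and all 90 in spots with at least 1000 UMIs. The replication to mitosis ratio, in the order facial unwounded, facial day 4, oral unwounded, oral day 4, was 0.820, 0.811, 0.427 and 0.692 with narrow lists and 0.508, 0.503, 0.259 and 0.459 without the most abundant gene of each list. It was 0.576 in facial day 4 without the highest region, and parts gave 0.577 to 0.613, 0.576 to 0.636, 0.282 to 0.398 and 0.459 to 0.567. At resolution 1 the highest region stood at 3078 (facial unwounded), 4630 (facial day 4), 2320 (oral unwounded) and 2548 (oral day 4). In oral day 4 that was the macrophage-led region and not the wound epithelium, which stood at 2438. With all genes clustered the highest region stood at 4538 in facial day 4 and 2328 in oral unwounded. Over spots with at least 1000 UMIs it stood at 4568 in facial day 4. Thinned to 3000 UMIs, 98.2%, 98.3%, 65.7% and 68.2% of spots held a division UMI.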
